A study of Mus musculus with 8 samples.

Results

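The mRNAs of the TET dioxygenases were measured in RNA recovered with an anti-GFP antibody, in RNA recovered with an anti-PABP1 antibody and in input RNA of mouse embryonic stem (ES) cells. The array carried 6 probes named for a TET gene among 41174 probes, for 3 of 27677 genes. They were found by symbol, synonym, accession or description, and no measured value was used: 1 probe of Tet1 (array name Cxxc6), 2 probes of Tet2 (E130014J05Rik) and 3 probes of Tet3 (B430006D22Rik and D230004J03Rik). Of these, 4 probes passed the filter on dim signals and entered a test over 20625 probes. All cells were of 1 transgenic line, Dazl-GFP, which grew over γ-irradiated feeder fibroblasts (MEFs) in DMEM with 15% FBS, leukemia inhibitory factor, the MEK inhibitor PD0325901 at 1 µM and the GSK3β inhibitor CHIR99021 at 3 µM (2i medium). The groups were 3 arrays of the GFP immunoprecipitation (IP), 2 arrays of the PABP1 IP and 3 arrays of input, for which no antibody was used. The IPs were native, that is, without crosslinking. The series set out to find RNAs held by DAZL, a germ cell RNA-binding protein, and its title links Dazl to TET. The labels do not say whether the line carries GFP fused to DAZL, and control-antibody IPs were not analysed here.

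TET proteins are iron- and 2-oxoglutarate-dependent enzymes that oxidise 5-methylcytosine in DNA to 5-hydroxymethylcytosine and further to forms that base excision repair can remove. Mouse ES cells are known to use mainly TET1 and TET2, while TET3 is best known from the oocyte and the zygote. PABP1, encoded by Pabpc1, binds poly(A) tails, and an IP with its antibody recovers mRNAs whose tails it holds.

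Values are log2 signals over the 75th percentile of the same array, so a level of 0 is that percentile. A difference between groups is therefore a share of the RNA on the array, not an amount of RNA, and the probes' absolute levels are not set against each other. Between 41.5 and 52.6% of spots were well above background on an array. Correlations between arrays of 1 group were 0.973 to 0.992, and those between groups were 0.843 to 0.921. The arrays sat on 2 slides, each holding all 3 groups. Dazl itself, at its brightest probe, had levels of 3.13, 3.84 and 3.27 in the GFP IP, −2.12 and −2.09 in the PABP1 IP and −0.23, −0.36 and −0.61 in input. Pabpc1 passed the test in none of the 3 comparisons. All 10 ES cell markers were above background on every array. They summed to 1511 to 2016 times the 75th percentile in the GFP IP, 2036 to 3940 times in the PABP1 IP and 2274 to 4211 times in input. Feeder fibroblast markers summed to 46.5 to 81.2 times the 75th percentile in the GFP IP, 192.5 to 198.2 times in the PABP1 IP and 127.2 to 176.1 times in input. Of these 15 markers, 14 were above background on all GFP IP arrays, 15 on all PABP1 IP arrays and 12 on all input arrays, and Twist1 was above background on no input array. In the GFP IP over input 2 feeder markers were called higher and 9 lower, against 24.2% and 39.1% of all tested probes. In the PABP1 IP over input 6 were called higher and 2 lower, against 34.5% and 25.9% of all tested probes. The part of the feeder markers in the TET values was not tested.

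Tet1 (probe A_51_P512172) had overlapping levels in the GFP IP and in input and was low in the PABP1 IP. Its levels were 0.87, 1.58 and 1.23 in the GFP IP, −0.60 and −1.05 in the PABP1 IP and 1.34, 1.48 and 0.86 in input, and it was above background on all 8 arrays. The GFP IP and input values overlapped, while both PABP1 IP values lay below every value of the other two groups. Within each group the array or arrays on slide 1 read higher than those on slide 2, by 0.53 in the GFP IP, 0.45 in the PABP1 IP and 0.55 in input. Pabpc1 split by slide the same way, by 1.69, 1.53 and 1.07 in the same groups.

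Tet2 was lower in the PABP1 IP too, and its brighter probe (A_51_P340083) varied little within groups. That probe had levels of 0.03, 0.13 and −0.12 in the GFP IP, −2.54 and −2.39 in the PABP1 IP and −0.30, −0.17 and −0.35 in input, above background on all 8 arrays. The 3 groups did not overlap, with the lowest GFP IP array just above the highest input array. The second Tet2 probe (A_52_P502083), for the same RefSeq mRNA, had levels of −2.90, −2.72 and −2.04 in the GFP IP, −5.41 and −5.63 in the PABP1 IP and −2.99, −2.07 and −1.56 in input. It was above background on all 3 GFP IP arrays, on neither PABP1 IP array and on 2 of 3 input arrays, so it passed the filter through the GFP IP alone.

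Tet3 was dim on all of its probes. Probe A_52_P173108 had levels of −2.97, −2.92 and −3.00 in the GFP IP, −5.80 and −4.92 in the PABP1 IP and −4.96, −4.21 and −4.28 in input. It was above background on the 3 GFP IP arrays and on none of the others, so it too passed only through the group where it was high. Probe A_52_P491273, for another Tet3 sequence, had levels of −5.36, −3.94 and −4.21 in the GFP IP, −3.74 and −4.09 in the PABP1 IP and −2.16, −2.99 and −3.77 in input. It was above background on 1 GFP IP array, 1 PABP1 IP array and 2 input arrays, and was not tested. Probe A_51_P199339, which shares its accession with A_52_P173108, was above background on none of the 8 arrays and lay between −6.19 and −4.49. The scanner software had put a surrogate in place of the signal on all 8 arrays for A_51_P199339 and on 2 arrays for A_52_P173108. Most values of the Tet3 probes were below background, so no order of the groups is read across them.

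**Figure D1:**
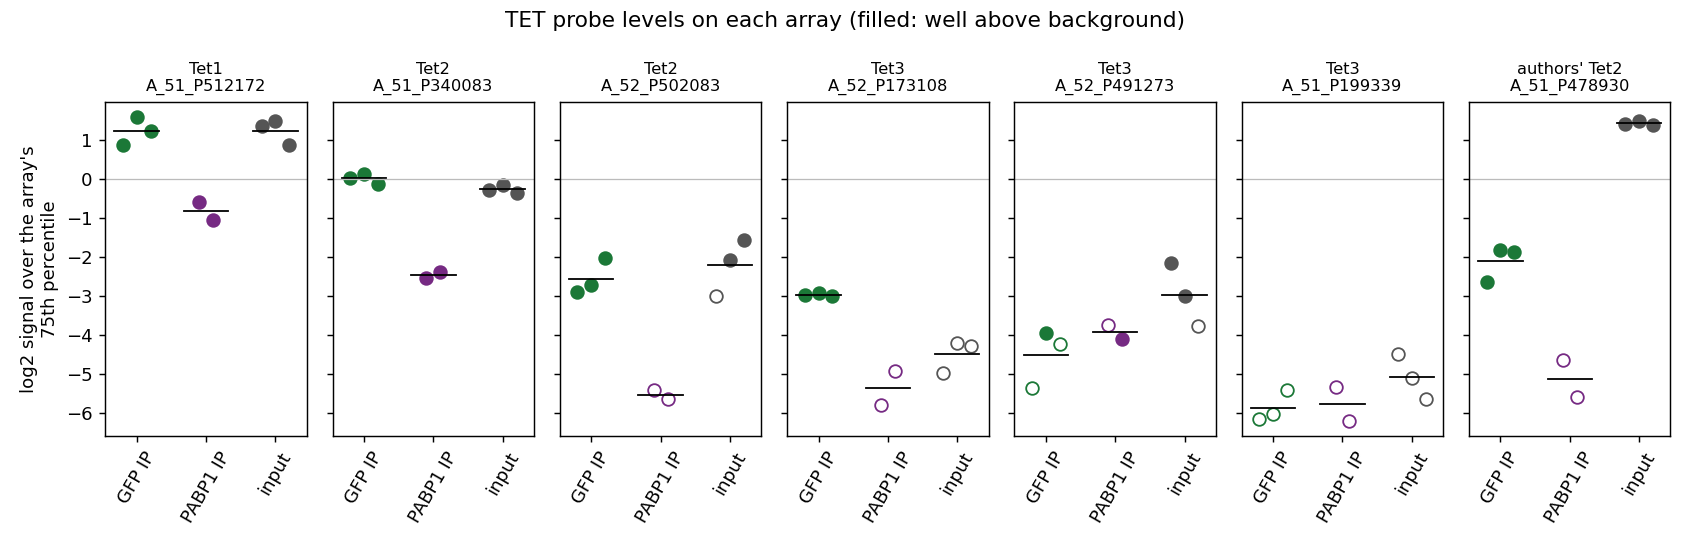
Level (log2 signal relative to the 75th percentile, vertical axis) of the 6 TET probes and of A_51_P478930, which the authors' deposited table also calls Tet2, on each of 3 GFP IP, 2 PABP1 IP and 3 input arrays. Points are arrays, filled where well above background, and bars are group means; both PABP1 IP points of Tet1 and of Tet2 probe A_51_P340083 lie below all other points of the same probe.

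In the GFP IP against input, Tet1 did not pass the test and the brighter Tet2 probe fell just short. Tet1 averaged 1.23 ± 0.35 in the GFP IP and 1.23 ± 0.32 in input (SD, n = 3 each), a difference of −0.00 ± 0.25 (SE; 95% interval −0.59 to 0.58; limma adjusted p = 0.993). Tet2 probe A_51_P340083 averaged 0.01 ± 0.13 in the GFP IP and −0.27 ± 0.09 in input (SD, n = 3 each), a difference of 0.28 ± 0.12 (SE; 95% interval −0.01 to 0.57; limma adjusted p = 0.0797). Tet2 probe A_52_P502083 differed by −0.35 ± 0.38 (SE; 95% interval −1.25 to 0.56; limma adjusted p = 0.453), with 1 input array below background. Only Tet3 probe A_52_P173108 was called: it was at least 1.32-fold higher in the GFP IP than in input (limma adjusted p = 0.00252), a bound set against the dimmest signals that counted as above background on the input arrays. That is 1 TET probe higher and 0 lower, where 24.2% of all tested probes were called higher and 39.1% lower. Since this probe entered the test only through the GFP IP, the group where it is high, the call and the count support nothing about the TET mRNAs. A different background correction (normexp, with 50 added to every signal) ended the Tet3 call, with a difference of 0.08 (limma adjusted p = 0.931). This probe's processed signals were 1.89 to 22.7 units, below the added 50. Such an offset draws the differences of dim probes towards 0, so smaller values with normexp correction are partly built in.

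The median tested probe stood at −0.38 in this comparison, so its zero is a matter of scaling. Relative to that median, Tet1 stood at 0.38 and Tet2 probe A_51_P340083 at 0.66, above 62.0 and 69.7% of tested probes. With slide as a block, Tet2 probe A_51_P340083 passed, at 0.31 (limma adjusted p = 0.0396), with 0.36 within slide 1 and 0.30 within slide 2. Tet1 stood at 0.17 with the block, 0.17 within slide 1 and 0.19 within slide 2. Scaling to each array's median instead of its 75th percentile gave Tet1 0.53 (limma adjusted p = 0.0327) and Tet2 0.82 (limma adjusted p = 0.00648), both then called higher. Weighting the arrays by their quality gave Tet1 −0.26 (limma adjusted p = 0.109) and Tet2 0.11 (limma adjusted p = 0.206), and normexp correction gave Tet2 0.17 (limma adjusted p = 0.767).

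**Figure D2:**
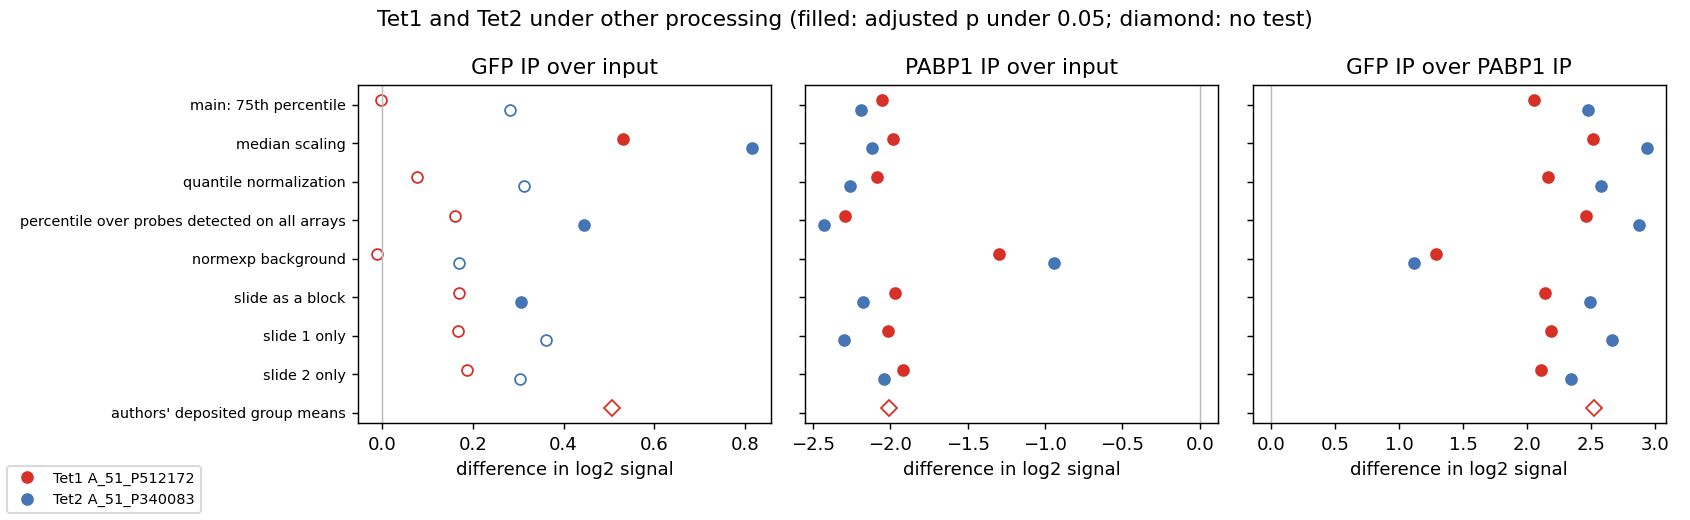
Difference in log2 signal (horizontal axes) of Tet1 and Tet2 probe A_51_P340083 in the 3 comparisons, with each way of scaling, background correction and slide handling down the page. Filled points have a limma adjusted p under 0.05, and diamonds are ratios of group means in the authors' deposited table, with no test; in the settings drawn Tet1 runs between −0.01 and 0.53 in the GFP IP over input, while both genes keep their sign and call in the other 2 comparisons.

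In the PABP1 IP against input, Tet1 and Tet2 both fell. Tet1 averaged −0.83 ± 0.32 in the PABP1 IP (SD, n = 2) and 1.23 ± 0.32 in input (SD, n = 3), a difference of −2.06 ± 0.28 (SE; 95% interval −2.71 to −1.40), which is 4.16-fold lower (limma adjusted p = 0.000585). Tet2 probe A_51_P340083 averaged −2.46 ± 0.10 in the PABP1 IP (SD, n = 2) and −0.27 ± 0.09 in input (SD, n = 3), a difference of −2.19 ± 0.14 (SE; 95% interval −2.52 to −1.87), which is 4.57-fold lower (limma adjusted p = 2.71e-05). Tet2 probe A_52_P502083 was at least 3.51-fold lower in the PABP1 IP (limma adjusted p = 0.000477), and with normexp correction it no longer passed (−0.78, limma adjusted p = 0.228). For Tet3 probe A_52_P173108 both groups were below background on all arrays, so no fold is given, although the limma fit gave it an adjusted p of 0.0425. That call ended in 12 alternatives, among them leaving out any GFP IP array, PABP1 IP array 1, input array 2 or input array 3, and without each array in turn its limma adjusted p ran between 0.0134 and 0.282. All 4 tested TET probes were called lower by the fit, that one included, where 25.9% of all tested probes were called lower and 34.5% higher. This count supports nothing about the TET probes as a set, since A_52_P502083 and A_52_P173108 entered the test only through their GFP IP signal.

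The median tested probe stood at 0.22 here, and relative to it Tet1 stood at −2.28 and Tet2 probe A_51_P340083 at −2.42. Only 6.29% of tested probes had a lower difference than Tet1, and 5.52% a lower one than Tet2. Tet1 stood at −2.01 on slide 1, −1.92 on slide 2 and −1.97 with a slide block, and Tet2 stood at −2.30, −2.04 and −2.18. With normexp correction the differences shrank to −1.30 for Tet1 (limma adjusted p = 0.0278) and −0.95 for Tet2 (limma adjusted p = 0.0302).

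Between the IPs, Tet1 and Tet2 were higher in the GFP IP. This comparison shares its arrays with both others, so it is not separate evidence. Tet1 was higher by 2.05 ± 0.28 (SE; 95% interval 1.40 to 2.71), or 4.15-fold (limma adjusted p = 0.000466). Tet2 probe A_51_P340083 was higher by 2.47 ± 0.14 (SE; 95% interval 2.15 to 2.80), or 5.56-fold (limma adjusted p = 1.28e-05). Tet2 probe A_52_P502083 was at least 2.76-fold higher (limma adjusted p = 0.000650), and Tet3 probe A_52_P173108 at least 2.08-fold higher (limma adjusted p = 0.000373). With normexp correction neither of those dim probes passed, at 0.53 for Tet2 (limma adjusted p = 0.406) and 0.51 for Tet3 (limma adjusted p = 0.446). All 4 tested TET probes were called higher, where 26.6% of all tested probes were called higher and 43.7% lower. Nothing is read from that count, nor from the calls and bounds of A_52_P502083 and A_52_P173108. Both of these probes passed the filter only through the GFP IP, the higher group here. The median tested probe stood at −0.52, and 91.4 and 94.7% of tested probes had a lower difference than Tet1 and Tet2 probe A_51_P340083. Tet1 stood at 2.18 on slide 1, 2.11 on slide 2 and 2.14 with a slide block, and this Tet2 probe stood at 2.66, 2.34 and 2.49. With normexp correction they stood at 1.28 (limma adjusted p = 0.0189) and 1.12 (limma adjusted p = 0.0103).

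**Figure D3:**
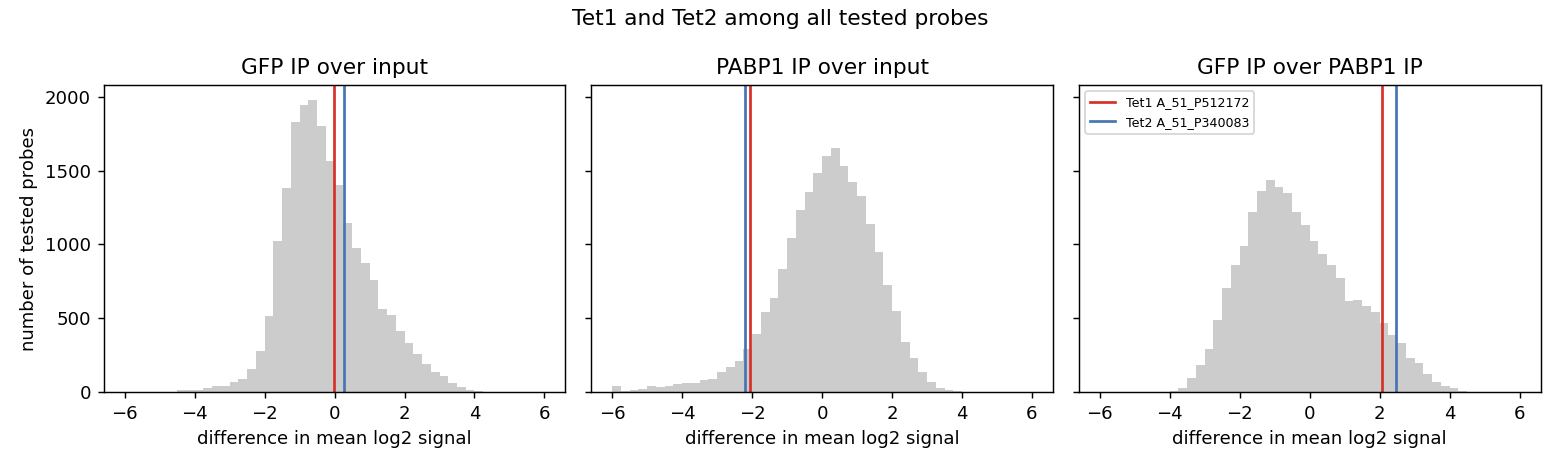
Histograms of the difference in mean log2 signal (horizontal axes; vertical axes count probes, and the end bins hold all values beyond the axis) over the 20625 tested probes in the 3 comparisons, with vertical lines at Tet1 and Tet2 probe A_51_P340083. Both lines lie inside the bulk for the GFP IP over input and near the lower end for the PABP1 IP over input, where 6.29 and 5.52% of probes are lower.

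One further probe is a Tet2 probe by 1 source only. A_51_P478930 carries a cDNA clone (AK080016) that the array describes as unclassifiable, and the authors' deposited table gives it the name Tet2. In the GFP IP over input it did not run with the RefSeq probes of Tet2. In the PABP1 IP all of these probes were lower than in input and than in the GFP IP. Only A_51_P340083 was above background there, and A_52_P502083 had passed the filter only through the GFP IP. The levels of A_51_P478930 were −2.64, −1.82 and −1.87 in the GFP IP, −4.64 and −5.57 in the PABP1 IP and 1.41, 1.48 and 1.38 in input. Every GFP IP array lay well below every input array, whereas Tet2 probe A_51_P340083 was slightly higher in the GFP IP arrays than in the input arrays. The difference was −3.53 ± 0.30 in the GFP IP over input (SE; limma adjusted p = 8.33e-05), which is 11.5-fold lower, with 0.393% of tested probes lower still. In the PABP1 IP, where neither array was above background, it was at least 43.3-fold lower than in input (limma adjusted p = 1.81e-05). It was at least 3.76-fold higher in the GFP IP than in the PABP1 IP (limma adjusted p = 0.000179), a call that normexp correction ended (0.62, limma adjusted p = 0.284).

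Differences between probes of the same array do not depend on scaling and were compared over 10 pairs of probes. Tet2 probe A_51_P340083 minus A_51_P478930 was 2.66, 1.94 and 1.75 in the GFP IP, 2.10 and 3.18 in the PABP1 IP and −1.71, −1.65 and −1.73 in input. The IP arrays of either kind did not overlap with the input arrays. The change was 3.81 in the GFP IP over input and 4.34 in the PABP1 IP over input, each with an exact two-sided permutation p = 0.1, the smallest that these numbers of arrays allow. Adjusted by Benjamini-Hochberg over the 30 tests of this kind, these exact p-values came to 0.214. With normexp correction the changes were 1.99 and 1.49, and A_51_P478930 was below background on both PABP1 IP arrays. Between Tet1 and Tet2 probe A_51_P340083 no such split was seen. Tet2 minus Tet1 was −0.84, −1.45 and −1.35 in the GFP IP, −1.93 and −1.34 in the PABP1 IP and −1.64, −1.66 and −1.22 in input, and all 3 groups overlapped. Its change was 0.29 in the GFP IP over input (exact permutation p = 0.3), −0.13 in the PABP1 IP against input (exact permutation p = 0.7) and 0.42 from one IP to the other, GFP over PABP1, (exact permutation p = 0.5). The brighter RefSeq probe of Tet2 changed by 0.63 relative to the dimmer one in the GFP IP over input (exact permutation p = 0.2), and no such value is given for the PABP1 IP, where the dimmer one was below background on both arrays.

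**Figure D4:**
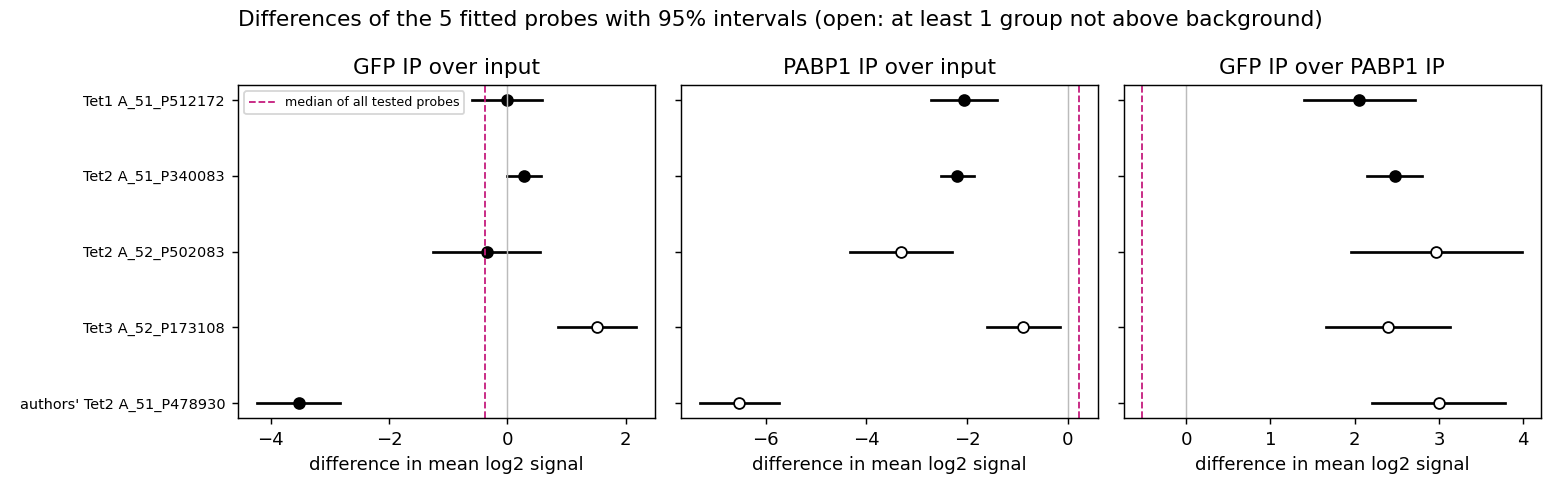
Differences in mean log2 signal (horizontal axes) with 95% intervals for the 4 tested TET probes and A_51_P478930 in the 3 comparisons, with a dashed line at the median of all tested probes. Open points have at least 1 group below background on all its arrays, so their position is no measured fold; A_51_P478930 lies at −3.53 in the GFP IP over input, while Tet1 and both Tet2 probes lie between −0.35 and 0.28.

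The authors' deposited table of group means put Tet1 lowest in the PABP1 IP too, at 45.2 in the GFP IP, 7.91 in the PABP1 IP and 31.9 in input. Its log2 ratios for Tet1 are 0.51 in the GFP IP over input, −2.01 in the PABP1 IP against input and 2.52 in the GFP IP against the PABP1 IP. For AK080016 the authors' deposited table has 4.24 in the GFP IP, 0.437 in the PABP1 IP and 37.0 in input. The authors' deposited table holds another pair of Tet2 values that its names do not tie to single probes. These are 17.2 in the GFP IP, 2.16 in the PABP1 IP and 9.30 in input for one, and 2.67 in the GFP IP, 0.302 in the PABP1 IP and 3.11 in input for the other. The log2 ratios in the GFP IP over input are 0.89 for the first of these and −0.22 for the second. For the Tet3 sequence of A_52_P491273 the values are 0.801 in the GFP IP, 0.948 in the PABP1 IP and 1.81 in input. The other Tet3 values are, in the same order, 2.84, 0.296 and 0.666, and 0.0213, 0.0516 and 4.1e-05. The scaling behind these means is unstated.

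Some probes ran almost level with the TET probes over the 8 arrays. Likeness was taken as the root mean square of the difference between 2 probes' levels after each probe's own mean was removed, among 14128 probes above background on every array. The nearest to Tet1 were Arl13b (0.0853), Exoc5 (0.144) and Zfr (0.149), against a median of 1.19 over all these probes, and 97 probes lay within 0.3. The nearest to Tet2 probe A_51_P340083 were Atf7ip (0.107), Pwwp2a (0.109) and Kmt2c (0.120), against a median of 1.29, with 149 probes within 0.3. The brightest Tet3 probe by mean level, A_52_P491273, was above background on only 4 of 8 arrays. Its nearest were Palld (0.237), Scarf2 (0.253) and Pcsk2 (0.268), and 4 probes lay within 0.3.

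The mRNAs of proteins that bind or regulate TET enzymes, repair their products or supply 2-oxoglutarate made a list of 50 genes, with 1 probe each. Of these, 49 were on the array and 46 were tested. Cxxc4, described with its relative Cxxc5, was too dim for a test. In the GFP IP over input 13 rose, 20 fell and 13 did not pass, with a median of −0.21 against −0.38 over all tested probes. Over all tested probes 24.2% were called higher and 39.1% lower, so 13 and 20 of 46 are near the background. The list's median turned to 0.33 with scaling to the array median, where 18 rose and 10 fell. In the PABP1 IP over input 14 rose, 18 fell and 14 did not pass, with a median of −0.12 against 0.22, where 34.5% of all tested probes were called higher and 25.9% lower. That median lay near 0 and moved with the processing. It was 0.03 with normexp correction and 0.01 with array weights, but −0.40 with quantile scaling and −0.36 with the percentile over detected probes. Between the IPs 22 were higher in the GFP IP, 14 were lower and 10 did not pass, with a median of 0.31 against −0.52, where 26.6% of all tested probes were called higher and 43.7% lower. With normexp correction the balance of calls turned, with 7 higher and 11 lower and a median of 0.14. Within slides 1 and 2 the list's medians were −0.19 and −0.35, −0.14 and −0.06, and 0.32 and 0.26 in the 3 comparisons.

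Ogt, the O-GlcNAc transferase that binds TET proteins, fell in both IPs. Its levels were −0.73, −0.61 and −0.41 in the GFP IP, −2.85 and −2.30 in the PABP1 IP and 0.16, 0.39 and 0.81 in input, and the 3 groups did not overlap. The difference was −1.04 ± 0.22 in the GFP IP over input (SE; limma adjusted p = 0.00513) and −3.03 ± 0.25 in the PABP1 IP over input (SE; limma adjusted p = 6.45e-05). A second Ogt probe read −3.05 and −3.85 in these comparisons. Hcfc1, a chromatin-bound partner of OGT, was lower in the PABP1 IP over input by the fit (−3.28 ± 0.25, SE; limma adjusted p = 4.75e-05), with 1 of 2 PABP1 IP arrays above background. Its other probes read −1.26 and −0.44, and in the GFP IP over input Hcfc1 did not pass, at −0.02 (limma adjusted p = 0.929).

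Cxxc5, a CXXC zinc finger protein known to restrain TET2, rose in the GFP IP. Its levels were 3.36, 3.01 and 3.17 in the GFP IP, 2.18 and 2.36 in the PABP1 IP and 1.96, 1.78 and 2.04 in input. The GFP IP arrays were all above the rest, at 1.25 ± 0.14 over input (SE; limma adjusted p = 0.000278), while the PABP1 IP over input was 0.34 (limma adjusted p = 0.10). A second Cxxc5 probe read 0.84 and −0.18. Its relative Cxxc4 was above background on none of the 8 arrays. Dcaf1, the adaptor of the CUL4 ubiquitin ligase that modifies TET proteins, was called lower in both IPs. It fell by 0.50 in the GFP IP (limma adjusted p = 0.00690) and by 1.16 in the PABP1 IP (limma adjusted p = 0.000222). The median tested probe stood at −0.38 in the GFP IP over input, not far from Dcaf1. A second Dcaf1 probe, above background on 3 arrays and not tested, read −0.16 and −1.45. Nanog, a pluripotency factor that binds TET1 and TET2, rose in both IPs. Its levels were 2.84, 2.73 and 2.93 in the GFP IP, 2.17 and 2.10 in the PABP1 IP and 1.44, 1.30 and 1.46 in input, with differences of 1.43 (limma adjusted p = 6.89e-05) and 0.74 (limma adjusted p = 0.00202). Tdg, the glycosylase that cuts out the oxidised bases TET enzymes make, passed in no comparison, at −0.06 in the GFP IP over input (limma adjusted p = 0.846) and −0.10 in the PABP1 IP over input (limma adjusted p = 0.763). A second Tdg probe read 0.69 and 0.96 in those comparisons.

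By size of change, the list was led in the GFP IP over input by Idh1, a cytosolic source of 2-oxoglutarate (2.16 ± 0.14, SE; limma adjusted p = 3.40e-05), and by Thap11, a transcription factor of ES cells (1.99 ± 0.12, SE; limma adjusted p = 2.93e-05). On the lower side the leading genes were Cul4b, a ubiquitin ligase scaffold (−1.67 ± 0.21, SE; limma adjusted p = 0.000431), and Mbd4, a DNA glycosylase (−1.58 ± 0.11, SE; limma adjusted p = 3.75e-05). The Cul4b probes disagreed, since another one stood at 1.5. In the PABP1 IP over input, Sdhb, a succinate dehydrogenase subunit, rose by 1.91 ± 0.15 (SE; limma adjusted p = 5.95e-05) and Gadd45a, a stress protein tied to DNA repair, by 1.82 ± 0.26 (SE; limma adjusted p = 0.000767). Ncor1, a co-repressor, fell by 3.04 (limma adjusted p = 3.54e-05) in the PABP1 IP, with other probes at −2.69, −2.70 and 2.11. Between the IPs, Hcfc1 (3.25) and Dnmt1, the maintenance methyltransferase (3.23), were higher in the GFP IP, and Sdhb (−2.49) and Idh3a, a mitochondrial maker of 2-oxoglutarate (−1.92), were lower. Hcfc1 was above background on only 1 of 2 PABP1 IP arrays, and its other probes read 0.77 and 1.58 between the IPs.

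**Figure D5:**
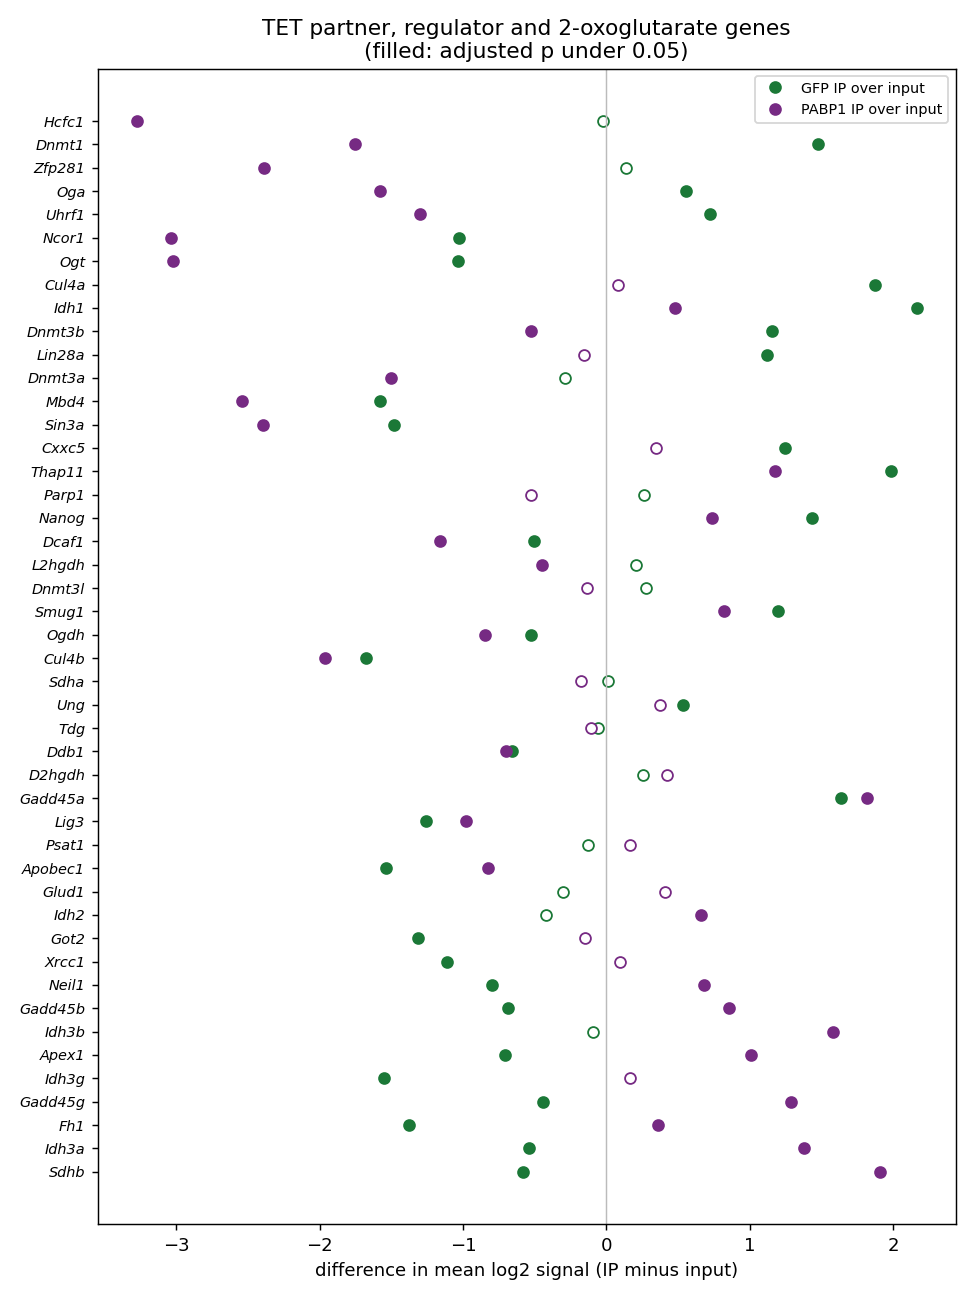
Differences in mean log2 signal (horizontal axis) of the 46 tested genes of the list in the GFP IP over input and the PABP1 IP over input, ordered by the difference between them. Filled points have a limma adjusted p under 0.05; Hcfc1 and Ogt lie near −3 in the PABP1 IP over input, and Idh1 and Thap11 near 2 in the GFP IP over input.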

How the data were processed

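RNA of 8 samples was measured on 1-colour Agilent arrays labelled with Cy3. The intensity values were deposited by the authors as scanner output, made with Feature Extraction 9.1.3.1 per the file headers, which had already subtracted background and replaced dim signals by a surrogate. The deposited files also hold flags, which are other values than brightness, for signal well above background, saturation and outlier spots. No TET spot was saturated. The authors' deposited table of group mean intensity has unstated scaling.

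Each array's 75th percentile over its 43379 spots was taken off the log2 of the processed intensity. Replicate spots were averaged by probe, with spots marked as outliers left out. The 30 probes left with no usable spot on some array were dropped. A probe was tested if some group had it above background on all its arrays, which left 20625. The test was limma (version 3.58.1, R 4.3.3), with lmFit and eBayes on the 8 arrays together, no covariates, 5 residual and 2.17 prior degrees of freedom, with Benjamini-Hochberg adjustment over all of them and a threshold of 0.05. Plots were made in Python 3.11.15 (matplotlib 3.10.9). Where a group was below background on all its arrays, a bound ("at least") replaces the fold: the brighter group's mean against, per array, the higher of the probe's own signal and the lowest signal above background. Names came from RefSeq genes (assembly GRCm38.p6), by accession for 15019 tested probes, by symbol for 2560 and by synonym for 1273, while 1773 kept the array's name. Where the probes lie in their transcripts was not analysed here, as probe sequences were not used.

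The members, lists and tests were chosen with earlier results of these data known. From the partner list, named genes were the 2 called genes with the largest change in each direction of each comparison and those with a described role as a TET partner, at the probe with the highest mean; all TET, Dazl and Pabpc1 probes were covered. Alternatives were normexp background correction with an offset of 50, median and quantile scaling, a percentile over detected probes, no filter and array weights. Others were 1 probe per gene, slide as a block, each slide alone, each array left out and the replicate number as a block. Slide comes from the scanner headers and is the scan as well. Same-numbered samples of different groups correlated between −0.714 and 0.570 in their deviations from group means. Samples of different groups on the same slide correlated between 0.417 and 0.740, and those on different slides between −0.740 and −0.242. The sign of these values followed the slide, so they cannot tell whether the numbers pair samples. The number of arrays limits precision, and since the labels name no separate cultures, the p-values cover only the spread among these samples, possibly a technical one. The tests were checked on simulated data.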

Additional observations from a re-analysis of the deposited data

How the results depend on the processing

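In the GFP IP over input the count of TET probes called was 1 of 4, but 0 with normexp correction, 3 with median scaling and 2 each with the percentile over detected probes and with slide as a block. Tet2 probe A_51_P340083 passed at 0.82 (limma adjusted p = 0.00648) with median scaling, 0.45 (0.0134) with the detected-probe percentile and 0.31 (0.0396) with slide as a block, and ranged from 0.22 to 0.35 without each array in turn, but was 0.11 (0.206) with array weights and 0.17 (0.767) with normexp correction. Tet1 there moved from −0.00 to 0.53 with median scaling, while the median of all tested probes moved from −0.38 to 0.16. It was 0.51 in the authors' deposited table, where the median log2 ratio over values above 1 was 0.10. Tet1 was −0.26 with array weights and ranged from −0.19 to 0.18 without each array in turn, and the cause of those shifts was not tested. With normexp correction 864 and 1138 of all probes were called higher and lower in the GFP IP over input, 2336 and 967 in the PABP1 IP against input, and 1617 and 3846 in the GFP IP against the PABP1 IP, and the TET count was 2 in each of the last 2 comparisons. Median scaling left 3887 lower calls in the GFP IP over input. The share of calls that were higher was 38.2% there, against 64.3% with median scaling; 57.1% in the PABP1 IP over input, against 70.7% with normexp and 47.6% with the detected-probe percentile; and 37.8% between the IPs, against 52% with median scaling, 51% with the detected-probe percentile and 29.6% with normexp. In the PABP1 IP over input, without each array in turn, Tet1 ranged from −2.28 to −1.83, Tet2 from −2.26 to −2.12 and the TET count from 3 to 4; between the IPs Tet1 ranged from 1.83 to 2.28 and Tet2 from 2.40 to 2.55, and Tet1 and Tet2 kept their call in both. In the authors' deposited table the log2 ratio of Tet1 between the IPs was 2.52. Tet2 minus Tet1 within an array moved to 0.35 for PABP1 over input and −0.17 for GFP over PABP1 with normexp correction. The replicate block left Tet2 probe A_51_P340083 at 0.28 (limma adjusted p = 0.0636) and Tet1 at −0.00 (limma adjusted p = 0.994) in the GFP IP over input, with 1 TET probe called; with the replicate block Tet1 stood at −2.15 and Tet2 at −2.25 in the PABP1 IP over input, and no TET call changed. Centring on the median tested probe of each array, chosen after seeing the data, moved the medians to −0.36, 0.22 and −0.49. Signal over background limits Tet3 and the second Tet2 probe.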
